A study of Mus musculus with 24 samples.

Results

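The comparison set cortical collecting ducts (CCD) dissected in the light phase against CCD dissected in the dark phase. It used 8 of the series' 24 arrays, chosen by segment and time alone, and covered 18194 genes. The light side held the 2 pools of ZT4 and the 2 pools of ZT8, and the dark side the 2 pools of ZT16 and the 2 pools of ZT20. ZT is zeitgeber time in hours, with lights on at ZT0 and lights off at ZT12. The question is which CCD transcripts stand at another level in the resting, lit hours of the mouse than in its active, dark hours.

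All groups came from male mice of the inbred strain C57BL/6J on standard chow, adapted to a cycle of 12 h light and 12 h dark, and the labels name no drug or allele. Their age is not given in the sources used here. Tubules were microdissected from collagenase-treated left kidneys, and each array carried product amplified from 10 ng of RNA. Each time had 2 pools made from RNA of 5 animals, and the labels do not say whether the pools share animals. All p-values thus reflect pool-to-pool spread, which may be technical. In bulk RNA, fewer cells of a type and less RNA per cell cannot be told apart. The series also holds the distal convoluted and connecting tubules (DCT/CNT) at the same times, used here for a test of the difference between segments and for a fit of their own.

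The CCD adjusts the final salt, potassium, acid and water content of urine. Its principal cells take up sodium and, under vasopressin, water, and its intercalated cells move acid, base and potassium. The circadian clock of each cell is a loop in which CLOCK or NPAS2 with BMAL1 (Arntl) activates the Per, Cry and Nr1d genes through E-boxes. PER and CRY proteins then repress that activator, and the REV-ERB proteins encoded by Nr1d1 and Nr1d2 repress Arntl.

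The promoters of 6 genes are printed because these genes fell in light and because each holds a letter pattern known for its class. They cover the 250 bases before to 50 bases after the gene start and are RefSeq's, on build GRCm38.p6, written 5′ to 3′ on the gene's strand. Capitals mark the match. In Cry1 (chr10:85185005-85185304, minus strand) it is the E-box CACGTG, which reads the same on both strands. Hspa5 (chr2:34771840-34772139, plus strand) and Creld2 (chr15:88819396-88819695, plus strand) hold the ER stress element, CCAAT and CCACG with 9 bases of any kind between them, in Creld2 on the other strand. The heat shock pattern GAANNTTC marks Hsph1 (chr5:149636266-149636565, minus strand), Hspb1 (chr5:135887669-135887968, plus strand) and Chordc1 (chr9:18292017-18292316, plus strand).
Cry1: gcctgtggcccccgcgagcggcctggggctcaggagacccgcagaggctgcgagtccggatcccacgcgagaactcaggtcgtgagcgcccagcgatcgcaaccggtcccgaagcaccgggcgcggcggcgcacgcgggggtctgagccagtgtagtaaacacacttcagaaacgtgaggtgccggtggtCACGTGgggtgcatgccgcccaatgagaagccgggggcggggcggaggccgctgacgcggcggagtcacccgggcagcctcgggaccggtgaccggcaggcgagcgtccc
Hspa5: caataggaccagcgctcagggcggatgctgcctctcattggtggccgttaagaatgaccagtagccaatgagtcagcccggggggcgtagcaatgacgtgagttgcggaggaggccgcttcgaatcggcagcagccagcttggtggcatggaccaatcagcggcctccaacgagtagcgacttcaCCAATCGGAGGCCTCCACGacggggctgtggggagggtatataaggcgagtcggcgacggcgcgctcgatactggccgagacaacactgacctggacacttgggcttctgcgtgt
Creld2: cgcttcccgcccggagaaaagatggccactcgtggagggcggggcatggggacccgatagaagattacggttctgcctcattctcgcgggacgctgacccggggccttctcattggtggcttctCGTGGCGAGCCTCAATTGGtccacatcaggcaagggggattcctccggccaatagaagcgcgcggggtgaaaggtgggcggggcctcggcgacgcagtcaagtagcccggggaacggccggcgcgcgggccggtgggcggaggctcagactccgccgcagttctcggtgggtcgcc
Hsph1: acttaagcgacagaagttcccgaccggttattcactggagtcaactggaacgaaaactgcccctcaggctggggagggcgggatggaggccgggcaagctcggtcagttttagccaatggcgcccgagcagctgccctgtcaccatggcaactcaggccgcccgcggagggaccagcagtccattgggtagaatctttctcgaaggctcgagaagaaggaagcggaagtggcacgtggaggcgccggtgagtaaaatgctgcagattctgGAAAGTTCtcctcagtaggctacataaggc
Hspb1: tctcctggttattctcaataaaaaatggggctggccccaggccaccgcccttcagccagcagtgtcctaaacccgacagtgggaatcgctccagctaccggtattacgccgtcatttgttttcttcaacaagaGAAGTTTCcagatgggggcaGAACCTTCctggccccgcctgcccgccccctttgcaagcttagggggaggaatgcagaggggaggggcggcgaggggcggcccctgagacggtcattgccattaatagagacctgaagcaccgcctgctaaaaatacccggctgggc
Chordc1: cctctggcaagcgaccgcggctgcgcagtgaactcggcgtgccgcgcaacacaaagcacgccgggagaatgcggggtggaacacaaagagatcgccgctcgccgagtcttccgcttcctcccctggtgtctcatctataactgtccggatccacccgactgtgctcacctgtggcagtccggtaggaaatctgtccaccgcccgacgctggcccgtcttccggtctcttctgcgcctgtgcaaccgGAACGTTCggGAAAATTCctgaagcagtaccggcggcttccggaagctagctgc
Matches were searched on both strands. Of 18007 promoters of tested genes, 8.74% held the E-box, 6.3% the heat shock pattern and 0.111% the ER stress element. Among the 113 promoters of genes called lower in light the shares were 15%, 11.5% and 1.77%, and among the 135 of genes called higher in light they were 8.89%, 5.93% and 0%. In the lower genes these were 17, 13 and 2 promoters of 15, 12 and 2 genes, since some genes have more than 1 promoter entry. The 2 with the ER stress element are those of Hspa5 and Creld2 printed above, and none was found for Manf and Sdf2l1, called in the same list. Of the 12 genes with the heat shock pattern only Hsph1, Hspb1 and Chordc1 belong to the heat shock list. No match to that pattern was found for its other called members, Ahsa1 and Cryab. No E-box was found for the called genes Nr1d1, Nr1d2, Per2 and Dbp, while the printed Hsph1 promoter also holds a CACGTG, left in small letters. Promoter entries were found for 194 of the 239 called genes, so a missing match can mean that no promoter was searched. The D-box TTATGTAA, the RORE core TAGGTCA and the CRE TGACGTCA were searched too, and stood in 0.694%, 2.17% and 2.5% of all promoters, in 0.741%, 1.48% and 4.44% of those higher in light and in 1.77%, 0.885% and 3.54% of those lower in light. These are descriptions of letters, with no test.

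Markers of both collecting duct cell types were high on the arrays. The log2 level of Hsd11b2, which protects the mineralocorticoid receptor from glucocorticoids, was 13.48 ± 0.07 in light pools and 13.57 ± 0.03 in dark pools (SD, n = 4 each). Aqp3, a water channel of principal cells, was 13.41 ± 0.02 in light pools and 13.46 ± 0.03 in dark pools (SD, n = 4 each), and Slc26a4, the pendrin exchanger of intercalated cells, was 13.54 ± 0.02 in light pools and 13.36 ± 0.10 in dark pools (SD, n = 4 each). The 20 measured DCT and CNT markers averaged 8.95 in light and 8.95 in dark pools and ranged widely. Slc12a3, the cotransporter that defines the distal convoluted tubule, was 5.06 ± 0.63 in light pools and 5.46 ± 0.47 in dark pools (SD, n = 4 each), while Calb1, a calcium-binding protein of the connecting tubule, was 11.70 ± 0.09 in light pools and 11.95 ± 0.17 in dark pools (SD, n = 4 each). CCD array medians lay between 5.83 and 5.87, and the pools of a time correlated across genes at r from 0.993 to 0.995 (genes are not independent replicates). The mean level of 22 proximal tubule markers spread from 7.22 to 8.28 in light pools and 7.49 to 8.26 in dark pools, and that of 11 thick ascending limb markers from 6.91 to 7.91 in light pools and 6.68 to 7.92 in dark pools. The part of these other segments in the results below was not tested beyond 1 model with both means as covariates.

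Of 18194 genes, 239 (1.31%) were called at an adjusted p under 0.05, of which 123 (0.676%) were higher and 116 (0.638%) lower in light. The shares of 0.676% and 0.638% are the background for every count of called list members below. Differences are light minus dark on the log2 scale throughout. Most were modest, with a median fold of 1.51 among the higher and 1.47 among the lower genes, and 15 and 8 genes beyond 2-fold. Light and dark arrays did not overlap for 113 of the 123 higher and 112 of the 116 lower genes, where 6.0% of all genes had all light arrays above and 4.46% all below the dark arrays, 10.5% together. Among the higher genes the highest of the 6 time means fell at ZT8 in 73 and at ZT4 in 37. Among the lower genes the lowest time mean fell at ZT8 in 84 and at ZT4 in 25.

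The number of calls depended on all 4 times. Leaving out 1 array at a time left 24 of the 239 calls in every omission and 107 in none, and no called gene changed sign. The fewest calls, 12 higher and 14 lower, were left without the second pool of ZT4. Without ZT8 no gene was called (smallest adjusted p = 0.0566), although 235 of the 239 kept an unadjusted p under 0.05. For each gene below, the number of the 8 array omissions that kept its call is given, with the highest adjusted p among the 8. The covariate fit kept 56 of all 239 calls. Of the 82 followed calls it kept 34 and ended 48, with no change of sign. The genes described below whose call it ended are named there.

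**Figure D1:**
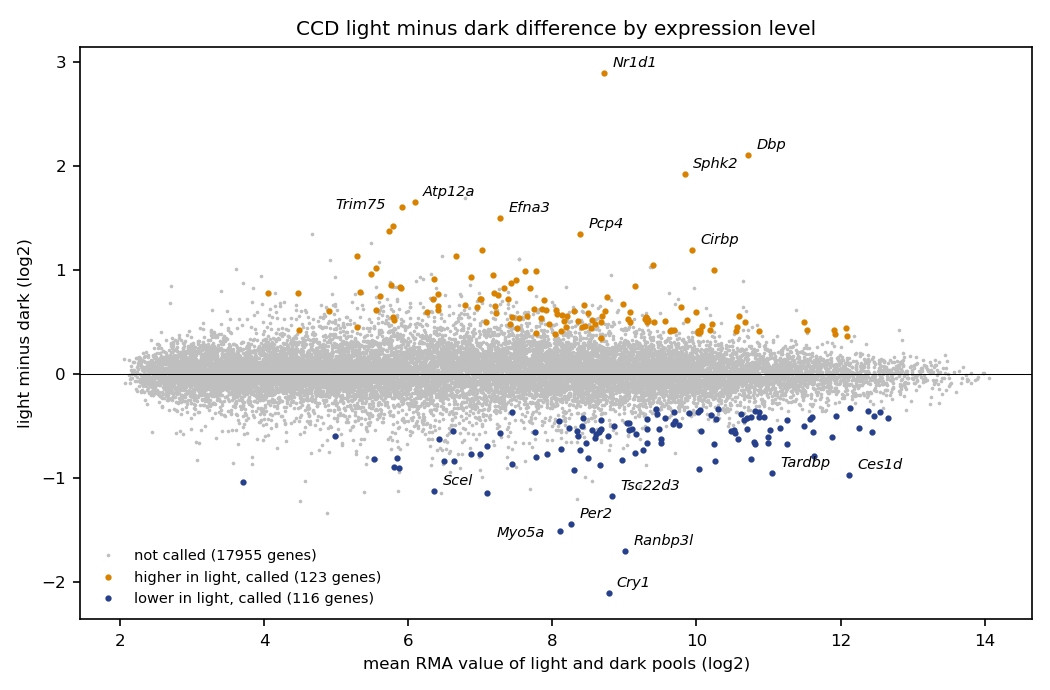
Each point is 1 of 18194 genes, with the mean log2 level of light and dark CCD pools on the x axis and the light minus dark difference (log2) on the y axis. The 123 genes called higher in light are orange and the 116 called lower are blue. Nr1d1 stands highest at 2.89 and Cry1 lowest at -2.10.

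The clock genes gave the extremes in both directions. Values are listed throughout as the 2 ZT4 pools, then the 2 ZT8 pools, against the 2 ZT16 pools, then the 2 ZT20 pools. Nr1d1, which encodes the repressor REV-ERB alpha, had log2 levels of 9.87, 10.03, 10.37 and 10.37 in light pools, against 7.47, 8.21, 7.06 and 6.34 in dark pools. Every light pool lay above every dark pool, and the lowest 2 were those of ZT20. Nr1d1 rose 7.41-fold in light, by 2.89 (SE 0.21, adjusted p = 0.00183). Cry1, a repressor of CLOCK and BMAL1 whose promoter E-box is printed above, had 7.56, 8.30, 7.49 and 7.57 in light pools, against 9.65, 9.61, 10.11 and 9.96 in dark pools. No light pool reached the dark range. Cry1 fell in light, with a difference of -2.10 (SE 0.16, adjusted p = 0.00183), a 4.3-fold difference. Per2, its partner in repression, had 7.24, 7.40, 7.72 and 7.79 in light pools, against 9.21, 9.44, 8.36 and 8.89 in dark pools. The sides did not overlap, and ZT16 was the higher dark time. Per2 differed by -1.44 (SE 0.12, adjusted p = 0.00266), and its other probe sets gave -1.13 and -0.23. All 3 kept the call in 8 of 8 omissions, with adjusted p up to 0.0161, 0.0161 and 0.0211.

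Nr1d2, which encodes REV-ERB beta, had 9.40, 9.51, 10.27 and 10.50 in light pools, against 9.69, 10.14, 8.01 and 7.67 in dark pools. Here the sides overlapped, since both ZT16 pools lay within the light range and both ZT20 pools below it. The difference of Nr1d2 was 1.04 (SE 0.13, adjusted p = 0.0134), and 5 of 8 omissions kept it, with adjusted p up to 0.0699. Without ZT20 the difference of Nr1d2 was 0.004 (adjusted p = 0.994). Nr1d2 also lost the call without ZT8 (adjusted p = 0.273) and with light and dark as 2 plain groups (adjusted p = 0.421). Of 16 measured core clock genes 2 rose and 2 fell, and the median difference of the list was 0.08, beside 0.02 over all genes. The other 12 were not called. Npas2, the partner of BMAL1, had 7.64, 7.60, 6.68 and 6.22 in light pools, against 3.97, 4.65, 7.30 and 7.70 in dark pools. Its light pools lay above both ZT16 pools and overlapped the ZT20 pools, and its difference was 1.13 (SE 0.23, adjusted p = 0.0555). Arntl, which encodes BMAL1, had 7.15, 6.91, 5.25 and 6.08 in light pools, against 5.12, 5.15, 7.31 and 7.21 in dark pools. High and low pools occurred on both sides, with a difference of 0.15 (SE 0.18, adjusted p = 0.768), and a second Arntl probe set gave -0.87 (adjusted p = 0.092 over all probe sets). Per3 likewise had its highest pools at ZT16 and its lowest at ZT20, with a difference of -0.10 (SE 0.16, adjusted p = 0.834). Per1, another Per repressor, differed by 0.52 (SE 0.20, adjusted p = 0.244), Clock by -0.31 (SE 0.12, adjusted p = 0.252) and Cry2 by -0.38 (SE 0.11, adjusted p = 0.145).

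**Figure D2:**
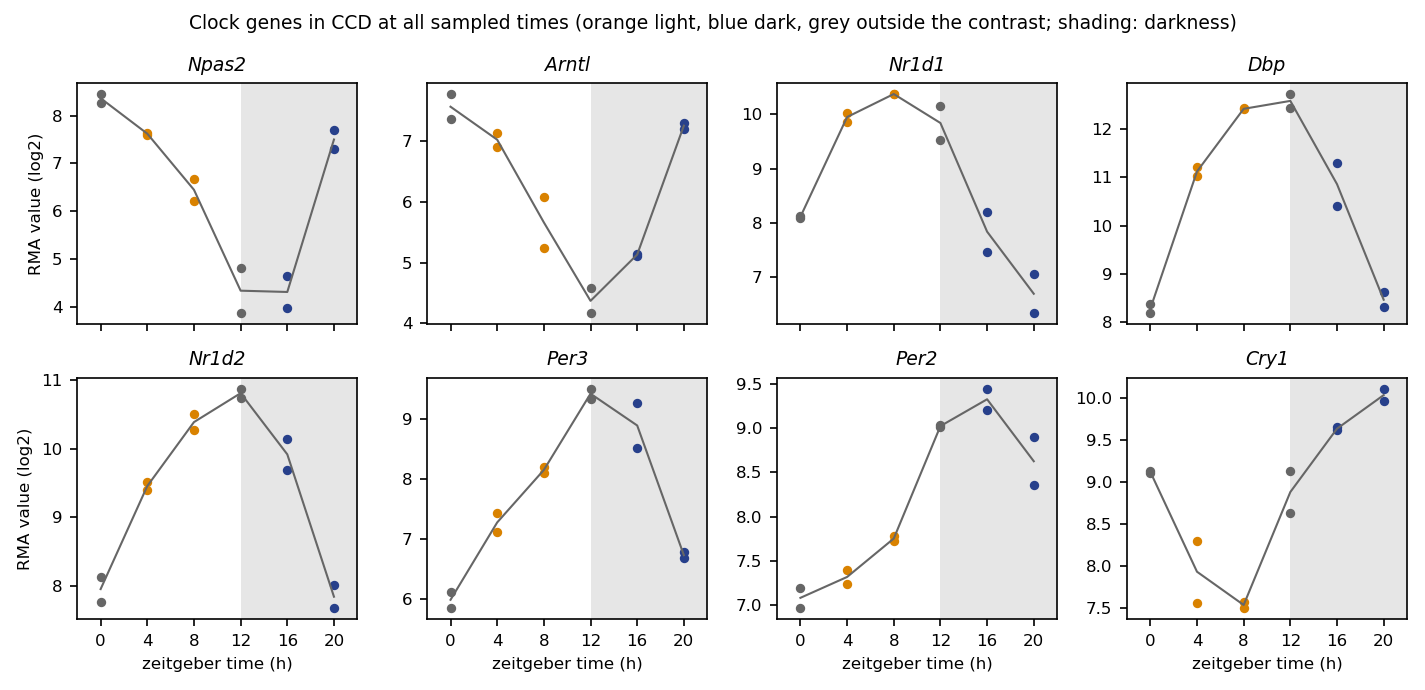
CCD log2 levels (y axis) of 7 core clock genes and Dbp at ZT0 to ZT20 (x axis, hours). Points are single pools, lines join the 2-pool means, and orange and blue mark the times in the contrast. Nr1d1 and Cry1 separate the sides, while Npas2, Arntl and Per3 differ as much within a side as between sides.

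Some clock genes also differed between the 2 dark times. Between ZT20 and ZT16 5 genes (0.0275%) were called, all clock genes or Dbp and its neighbour. Npas2 was higher at ZT20 by 3.19 (SE 0.32). Dbp was lower at ZT20, with a difference of -2.39 (SE 0.25), and so were Per3 (-2.16), Nr1d2 (-2.08) and Sphk2 (-1.94). The adjusted p was 0.0214 for Dbp and 0.021 for each of the others. All 5 lost the call when either ZT20 pool was left out, with adjusted p up to 0.302. Between ZT8 and ZT4 limma called 0 genes, with 1403 at an unadjusted p under 0.05.

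Among clock outputs Dbp, a PAR bZIP activator under direct clock control, had 11.03, 11.21, 12.40 and 12.43 in light pools, against 10.42, 11.30, 8.32 and 8.62 in dark pools. The sides overlapped only through 1 ZT16 pool. Dbp rose 4.29-fold in light, by 2.10 (SE 0.18, adjusted p = 0.00266), and a second probe set gave 2.03. Sphk2, a sphingosine kinase, differed by 1.92 (SE 0.13, adjusted p = 0.00183), but its second probe set gave -0.13 (adjusted p = 0.47 over all probe sets). In the gene table Sphk2 overlaps Dbp, and which of them the first probe set reads was not tested. Of 14 measured output genes 1 rose and 3 fell, with a median of -0.31. Nampt, the rate-limiting enzyme of NAD salvage, differed by -0.53 (SE 0.07, adjusted p = 0.0132) and Lonrf3, a LON domain RING protein, by -0.80 (SE 0.13, adjusted p = 0.0313). Omissions of 1 array kept Dbp and Sphk2 in 8 of 8 (adjusted p up to 0.0226 and 0.0161), Nampt in 5 (adjusted p up to 0.0689) and Lonrf3 in 1 (up to 0.118). Without ZT20 neither Dbp nor Sphk2 was called (adjusted p of 0.164 and 0.0727). With light and dark as 2 plain groups both also lost the call (adjusted p of 0.186 and 0.182). Nampt lost the call with the 2 segment means as covariates (adjusted p = 0.055). The other PAR bZIP genes were not called, with differences of -0.27 for Tef and -0.09 for Hlf. Nfil3, a repressor at the same sites, differed by -0.91 (SE 0.26, adjusted p = 0.137).

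Tsc22d3, which encodes the glucocorticoid-induced leucine zipper GILZ and is known to raise sodium channel activity, had 8.30, 8.24, 8.26 and 8.18 in light pools, against 9.43, 9.54, 9.28 and 9.43 in dark pools. The 2 ranges were narrow and lay apart. Tsc22d3 fell in light, with a difference of -1.17 (SE 0.11, adjusted p = 0.00329), and kept the call in 8 of 8 omissions (adjusted p up to 0.0297). The gene's 3 further probe sets gave -0.63, -0.19 and -0.14. Of 21 glucocorticoid response genes Tsc22d3 fell and Mt1, a metallothionein, rose, by 0.56 (SE 0.11, adjusted p = 0.0489), a call that no omission kept (adjusted p up to 0.157) and that ended with the covariates (adjusted p = 0.116). The list's median was 0.05. Tsc22d3 is also counted among the clock output and principal cell genes. Klf15, another glucocorticoid target, differed by -0.49 (SE 0.11, adjusted p = 0.069) and was not called.

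**Figure D3:**
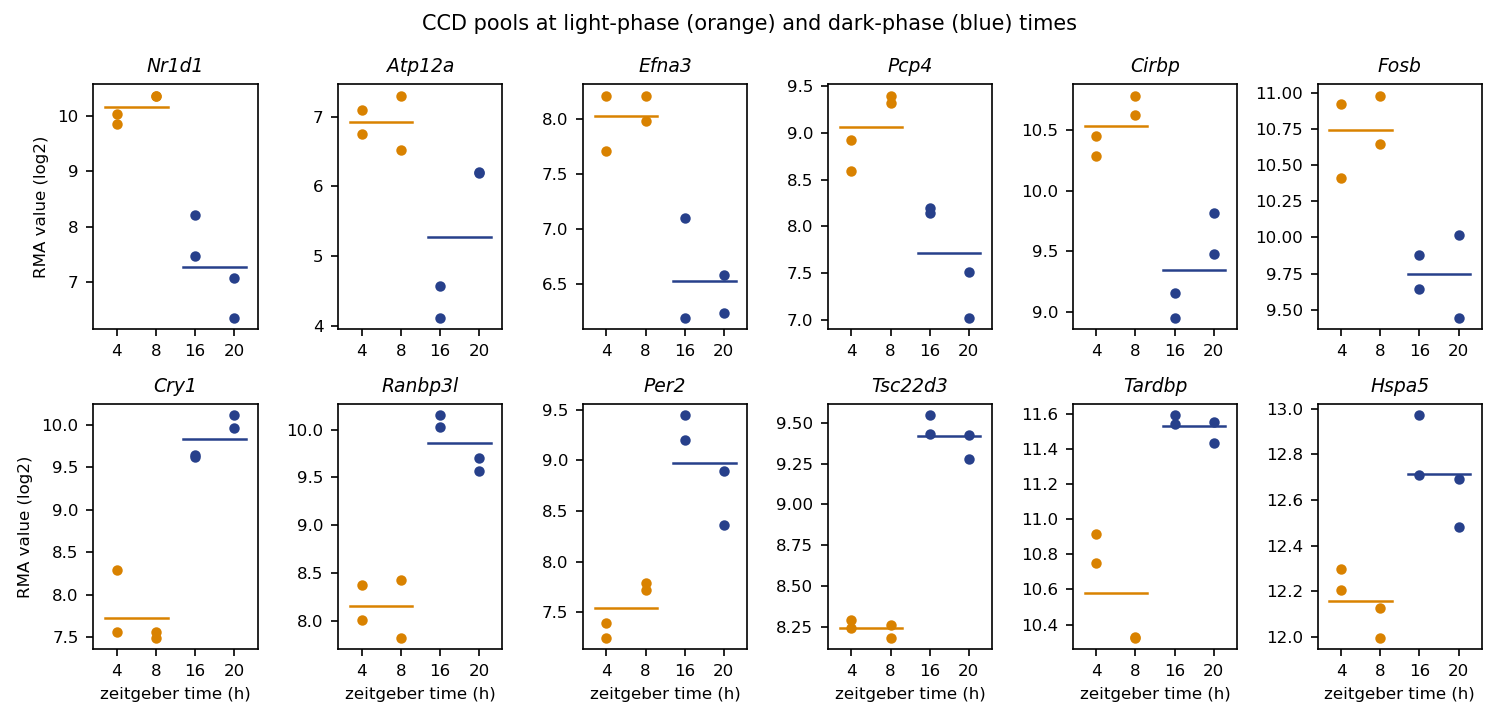
CCD log2 levels (y axis) of 12 genes, with ZT4 and ZT8 pools in orange left of ZT16 and ZT20 pools in blue (x axis, hours). Each point is 1 pool and each line the mean of the 4 pools of a side. In all 12 genes the light and dark pools do not overlap.

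Atp12a, the colonic H+/K+-ATPase alpha subunit, which takes up potassium, had 7.09, 6.75, 6.52 and 7.30 in light pools, against 4.57, 4.11, 6.21 and 6.19 in dark pools. All light pools exceeded all dark pools, and the ZT16 pools were the lowest. Atp12a rose 3.13-fold, by 1.65 (SE 0.27, adjusted p = 0.0287). The call was kept in 1 of 8 omissions, with adjusted p up to 0.109. No intercalated cell marker was called among 21 measured, 16 differences were positive, 8 genes were higher and 1 lower at an unadjusted p under 0.05, and the median was 0.14. Over all genes 9860 of 18194 differences were positive, and 1645 were higher and 1174 lower at that unadjusted p, 15.5% together. Outside the lists, Atp6v0d1, a subunit of the vacuolar proton pump, fell, with a difference of -0.50 (SE 0.06, adjusted p = 0.0134) and 5 of 8 omissions keeping the call (adjusted p up to 0.0717). It was chosen after its value was seen. The covariate fit ended the calls of Atp12a and Atp6v0d1 (adjusted p of 0.0818 and 0.0613). Foxi1, the transcription factor of these cells, differed by 0.28 (SE 0.08, adjusted p = 0.151) and Slc4a9, a sodium-coupled bicarbonate carrier, by 0.32 (SE 0.09, adjusted p = 0.152).

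Among 25 genes of water transport and vasopressin signalling 0 rose and 2 fell, with a median of -0.04. Over all genes 0.676% were called higher and 0.638% lower. At an unadjusted p under 0.05, 4 of the 25 were higher and 9 lower, beside 1645 and 1174 of 18194 over all genes. Avpr2, the vasopressin V2 receptor, had 11.62, 11.36, 11.15 and 11.30 in light pools, against 11.74, 11.71, 11.80 and 11.89 in dark pools. Every light pool lay below every dark pool, by a narrow gap. Avpr2 fell in light by 0.43 (SE 0.08, adjusted p = 0.0482) on the log2 scale, and no array omission kept the call (adjusted p up to 0.152). Aqp4, a basolateral water channel, had 11.46, 11.34, 11.29 and 11.28 in light pools, against 11.84, 11.80, 11.91 and 12.05 in dark pools. Its sides lay apart and its other 2 probe sets gave -0.64 and -0.71. The difference of Aqp4 was -0.56 (SE 0.08, adjusted p = 0.0242), again with no omission keeping it (up to 0.101). Aqp2, the apical channel that vasopressin inserts, was not called, at -0.39 (SE 0.10, adjusted p = 0.0937). Of 19 principal cell sodium and potassium genes 1 was called, Tsc22d3, and the median was -0.01. Avpr2 and Aqp4 were not called in the covariate fit, with adjusted p of 0.0873 and 0.0686. Over 12 settings other than omissions, that fit included, Avpr2 lost the call in 7 and Aqp4 in 3. Aqp4 also lost the call with all 24 arrays and with its most variable probe set. The further losses of Avpr2 included the 8 contrasted arrays alone, 2 plain groups, array weights and the replicate block. Kcnj1, the ROMK potassium channel, differed by -0.20 (SE 0.07, adjusted p = 0.208).

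All called genes of the 2 chaperone lists were lower in light. Over all genes 0.638% were called lower, and 9860 of 18194 differences were positive. Of 22 unfolded protein response genes 0 rose and 4 fell, 20 differences were negative, and the median was -0.25. Hspa5, the ER chaperone BiP, had 12.20, 12.30, 12.13 and 12.00 in light pools, against 12.97, 12.71, 12.69 and 12.48 in dark pools. The ranges lay apart, with ZT16 highest. Hspa5 differed by -0.56 (SE 0.09, adjusted p = 0.0283). Sdf2l1, an ER chaperone complex member, differed by -0.73 (SE 0.12, adjusted p = 0.0298), Manf, a secreted ER stress protein, by -0.67 (SE 0.10, adjusted p = 0.0225) and Creld2, another ER stress protein, by -0.61 (SE 0.09, adjusted p = 0.0227). Array omissions kept Hspa5 in 1, Sdf2l1 in 1, Manf in 2 and Creld2 in 2 of 8, with adjusted p up to 0.0929, 0.112, 0.0775 and 0.0871. With the 2 segment means as covariates Hspa5, Sdf2l1 and Creld2 lost the call, with adjusted p of 0.067, 0.055 and 0.0766.

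Of 22 heat shock genes 0 rose and 5 fell, 20 differences were negative, and the median was -0.20. Hsph1, a large HSP110 family chaperone, had 11.48, 11.56, 11.55 and 11.75 in light pools, against 12.54, 12.29, 11.99 and 11.94 in dark pools. Dark pools of ZT16 were the highest and all light pools lay below the dark range. Hsph1 differed by -0.60 (SE 0.08, adjusted p = 0.0155) and its second probe set by -0.68. Hspb1, the small heat shock protein HSP27, had 7.92, 8.08, 8.11 and 8.25 in light pools, against 9.52, 8.82, 8.58 and 8.65 in dark pools, a difference of -0.80 (SE 0.14, adjusted p = 0.0391). Chordc1 and Ahsa1, which assist HSP90, differed by -0.44 (SE 0.08, adjusted p = 0.0465) and -0.40 (SE 0.06, adjusted p = 0.0281), and Cryab, the small chaperone alpha B crystallin, by -0.37 (SE 0.07, adjusted p = 0.0465). Hsph1 kept the call in 2 and Hspb1 in 1 omissions (adjusted p up to 0.0699 and 0.132), and the other 3 in none (up to 0.148, 0.104 and 0.152). The covariate fit ended the calls of Hspb1, Chordc1, Ahsa1 and Cryab (adjusted p of 0.0696, 0.107, 0.0967 and 0.121). Of 3 measured genes listed as cold-inducible, 2 were not called (0.04 and 0.31, the latter being the list median) and 1 rose. It was Cirbp, an RNA-binding protein induced in cooled cells, with 10.45, 10.29, 10.78 and 10.62 in light pools, against 8.95, 9.16, 9.81 and 9.47 in dark pools. Its light pools all lay above its dark pools. Cirbp rose 2.28-fold, by 1.19 (SE 0.10, adjusted p = 0.00266), and kept the call in 8 of 8 omissions (adjusted p up to 0.0211).

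Of 19 genes of the ATF4 and amino acid supply list 2 fell, Nupr1, a stress-induced chromatin protein (-0.91, SE 0.18, adjusted p = 0.0485), and Cth, which makes cysteine (-0.60, SE 0.08, adjusted p = 0.0192). The list's median was -0.11. Nupr1 kept the call in no omission and Cth in 1, with adjusted p up to 0.156 and 0.0775. Nupr1 and Cth were not called in the covariate fit, with adjusted p of 0.131 and 0.0616. Slc7a11, the cystine carrier, differed by -1.33 (SE 0.35, adjusted p = 0.111) and was not called.

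Of 24 immediate early genes 2 rose and 1 fell, 20 differences were positive, and the median was 0.23. Over all genes 0.676% were called higher and 0.638% lower, and 9860 of 18194 differences were positive. Fosb, a subunit of AP-1, had 10.41, 10.92, 10.98 and 10.65 in light pools, against 9.64, 9.88, 9.44 and 10.02 in dark pools. Its sides lay apart. Fosb rose by 0.99 (SE 0.16, adjusted p = 0.0287), and Nr4a1, an orphan nuclear receptor induced by signalling, rose by 0.84 (SE 0.15, adjusted p = 0.0416). Myc, the growth regulator, fell, with a difference of -0.77 (SE 0.12, adjusted p = 0.0242). Omissions kept Fosb in 2, Nr4a1 in 1 and Myc in 2 of 8, with adjusted p up to 0.1, 0.14 and 0.0871. With the 2 segment means as covariates Fosb, Nr4a1 and Myc lost the call, with adjusted p of 0.067, 0.0818 and 0.0809. Ier2, another early gene, was not called, at 0.60 (SE 0.12, adjusted p = 0.0514). Collagenase digestion was shared by all samples, and dissection times are not given.

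**Figure D4:**
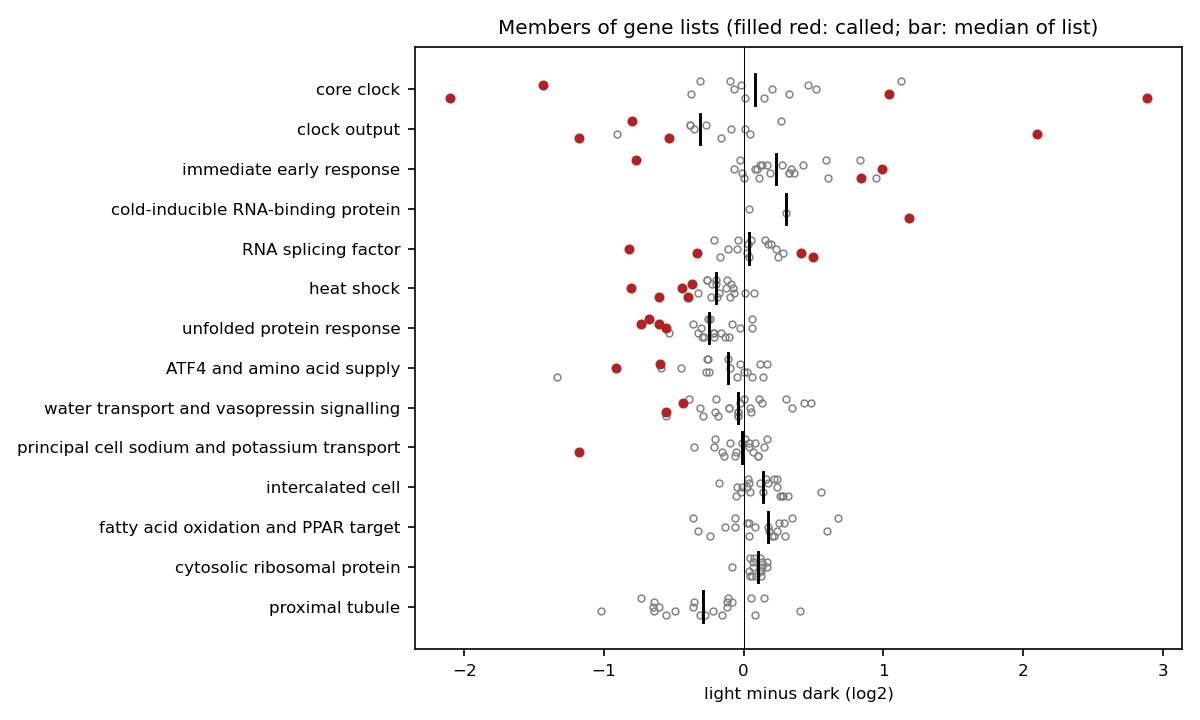
Light minus dark differences (x axis, log2) of the measured members of 14 gene lists (rows). Filled red points are called genes, open points are not called, and black bars are list medians. The unfolded protein response and heat shock medians are -0.25 and -0.20, and no member of either list was called higher in light.

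RNA-processing genes were called in both directions, 2 higher and 2 lower among 20 splicing factors, with a median of 0.04. Hnrnpdl, an RNA-binding protein (0.50, SE 0.07, adjusted p = 0.0145), and Clk4, a kinase of splicing factors (0.41, SE 0.07, adjusted p = 0.0284), rose. Tra2a, a splicing activator (-0.82, SE 0.10, adjusted p = 0.00943), and Hnrnph1 (-0.33, SE 0.06, adjusted p = 0.0472) fell, but 5 other probe sets of Tra2a gave differences from -0.03 to 0.12. Omissions kept Hnrnpdl in 3, Clk4 in 0, Tra2a in 7 and Hnrnph1 in 0 of 8, with adjusted p up to 0.0747, 0.0981, 0.0547 and 0.151. The covariate fit ended the calls of Hnrnpdl, Clk4 and Hnrnph1 (adjusted p of 0.0616, 0.0984 and 0.12). Tardbp, which encodes the RNA-binding protein TDP-43, had 10.75, 10.91, 10.33 and 10.32 in light pools, against 11.59, 11.54, 11.43 and 11.55 in dark pools. All light pools lay below all dark pools, and the ZT8 pools were the lowest. Tardbp fell in light, with a difference of -0.95 (SE 0.07, adjusted p = 0.00183), kept the call in 8 of 8 omissions (adjusted p up to 0.0161), and its 4 other probe sets gave values from -0.91 to -0.22.

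In metabolism, 1 of 23 genes of cholesterol and fatty acid synthesis rose, Hsd17b7, a cholesterol synthesis enzyme (0.42, SE 0.08, adjusted p = 0.0394), and 1 fell, the desaturase Scd2 (-0.40, SE 0.07, adjusted p = 0.0284). They kept the call in 1 and 0 omissions (adjusted p up to 0.136 and 0.101). Hsd17b7 and Scd2 were not called in the covariate fit, with adjusted p of 0.0686 and 0.0839. The median was 0.17, and Insig1, which restrains sterol synthesis, was not called (0.49, SE 0.13, adjusted p = 0.109). None of 21 fatty acid oxidation genes was called by limma, with 10 higher in light at an unadjusted p under 0.05 (1645 of 18194 over all genes) and a median of 0.17. Acadvl and Slc25a20, of mitochondrial fatty acid uptake and breakdown, differed by 0.29 (SE 0.06, adjusted p = 0.0672) and 0.34 (SE 0.08, adjusted p = 0.0776). Ces1d, a carboxylesterase that hydrolyses lipid esters, had 11.71, 11.76, 11.64 and 11.41 in light pools, against 12.72, 12.38, 12.62 and 12.66 in dark pools. The sides did not overlap. Its difference was -0.97 (SE 0.10, adjusted p = 0.00589), kept in 8 of 8 omissions (adjusted p up to 0.0394), and its other 2 probe sets gave -1.29 and -0.80. None of 32 oxidative phosphorylation genes and none of 18 cytosolic ribosomal protein genes was called, with medians of 0.03 and 0.10 and 1 and 2 genes at an unadjusted p under 0.05. Differences were positive in 25 and 17 of them, beside 9860 of 18194 over all genes. All light arrays lay above all dark arrays in 6 and 8, beside 6.0% of all genes.

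In cytoskeleton and matrix, 1 of 18 SRF and YAP targets rose and 2 fell, with a median of -0.10. Thbs1, the matrix protein thrombospondin, rose by 0.52 (SE 0.09, adjusted p = 0.0338), but its second probe set gave 0.14 (adjusted p = 0.507 over all probe sets). Actn1, an actin crosslinker, differed by -0.62 (SE 0.10, adjusted p = 0.0287) and Ccn2, a matrix-associated growth factor, by -0.67 (SE 0.13, adjusted p = 0.0485). Other probe sets of Actn1 gave -0.30 and -0.27. Array omissions kept Thbs1 in no case and Actn1 and Ccn2 in 1 each, with adjusted p up to 0.126, 0.109 and 0.157. Sesn1, a stress-induced sestrin, was the only called member of 23 autophagy and FoxO targets, at -0.42 (SE 0.08, adjusted p = 0.0396), and kept the call in 0 omissions (adjusted p up to 0.127). Its other probe sets gave -0.17, -0.15 and 0.08. With the 2 segment means as covariates Thbs1, Actn1 and Sesn1 lost the call, with adjusted p of 0.114, 0.107 and 0.112.

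Other leading genes belonged to no common list. Efna3, the ephrin-A3 ligand of Eph receptors, had 7.71, 8.21, 7.98 and 8.21 in light pools, against 6.19, 7.10, 6.58 and 6.24 in dark pools. Light pools all lay above dark pools. Efna3 rose by 1.50 (SE 0.20, adjusted p = 0.0145), though its second probe set gave 0.43 (adjusted p = 0.123 over all probe sets). Pcp4, a calmodulin-binding peptide, had 8.93, 8.59, 9.40 and 9.32 in light pools, against 8.20, 8.14, 7.02 and 7.51 in dark pools. The ZT20 pools were the lowest and no pools overlapped between sides. Pcp4 rose by 1.34 (SE 0.15, adjusted p = 0.00821) and kept the call in 8 of 8 omissions (adjusted p up to 0.0416), Efna3 in 5 (adjusted p up to 0.0699).

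Rwdd3, an enhancer of SUMO conjugation (0.99, SE 0.11, adjusted p = 0.00852), and Inca1, an inhibitor of cyclin-dependent kinase (1.02, SE 0.11, adjusted p = 0.00753), also rose and kept the call in 8 of 8 (adjusted p up to 0.0481 and 0.0451). Col25a1, a membrane collagen (1.19, SE 0.16, adjusted p = 0.0145), Myh7, a myosin heavy chain (1.13, SE 0.16, adjusted p = 0.022), and Hhex, a homeobox factor (0.96, SE 0.17, adjusted p = 0.0375), rose with 3, 3 and 1 omissions keeping them (adjusted p up to 0.0675, 0.0775 and 0.116). Trim75 (1.60, SE 0.25, adjusted p = 0.0284), the sialyltransferase St6galnac3 (1.42, SE 0.24, adjusted p = 0.0326), the mitochondrial Pld6 (1.13, SE 0.21, adjusted p = 0.0416) and Sbsn (0.99, SE 0.15, adjusted p = 0.0283) did so with 2, 1, 0 and 2. Their adjusted p reached 0.109, 0.109, 0.139 and 0.0968. Other probe sets gave 0.26 for Col25a1, 0.11 for Inca1, 0.16 and 0.03 for St6galnac3, 0.96 and -0.16 for Rwdd3 and 0.85 and -0.08 for Sbsn. The covariate fit ended the calls of Col25a1, Hhex, St6galnac3, Pld6 and Sbsn (adjusted p of 0.067, 0.0766, 0.067, 0.067 and 0.0686).

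On the lower side, Myo5a, a motor of vesicle transport, had 8.0, 7.65, 7.02 and 6.72 in light pools, against 8.56, 9.28, 9.06 and 8.53 in dark pools. ZT8 pools were lowest and all light pools lay below the dark range. Myo5a differed by -1.51 (SE 0.27, adjusted p = 0.0378), no omission kept the call (adjusted p up to 0.128), and 2 other probe sets gave -1.11 and -1.14. Pappa, a protease of IGF-binding proteins (-0.87, SE 0.08, adjusted p = 0.00266), kept the call in 8 of 8 (adjusted p up to 0.0257). Scel, an epithelial envelope protein (-1.12, SE 0.14, adjusted p = 0.0112), the zinc finger gene Zfp458 (-0.92, SE 0.12, adjusted p = 0.0134) and the kinase gene Cdk18 (-0.87, SE 0.14, adjusted p = 0.0284) fell with 5, 3 and 2 omissions keeping them (adjusted p up to 0.0587, 0.0596 and 0.0968). Other probe sets gave -0.21 for Scel and -0.18 for Zfp458. Spag5, of the mitotic spindle (-1.15, SE 0.21, adjusted p = 0.0438), Fndc9 (-0.89, SE 0.14, adjusted p = 0.0284) and Dnajb7 (-1.04, SE 0.17, adjusted p = 0.0294) fell with 0, 1 and 0 (adjusted p up to 0.145, 0.109 and 0.109), and Dnajb7 was dim at 3.20 ± 0.12 in light pools and 4.23 ± 0.46 in dark pools (SD, n = 4 each). Myo5a, Cdk18, Spag5, Fndc9 and Dnajb7 were not called in the covariate fit, with adjusted p of 0.0912, 0.0501, 0.0818, 0.0616 and 0.067. In the gene table Nr1d1, Tardbp, Hspa5, Avpr2, Hnrnpdl, Clk4, Sbsn, Fndc9 and Dnajb7 overlap another protein-coding gene, whose part in their signal was not tested.

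A further 12 lists had 0 members called by limma, with medians from -0.10 for NRF2 and glutathione genes to 0.22 for interferon and antigen presentation. The interferon list had 17 of 20 differences positive and 7 genes higher in light at an unadjusted p under 0.05, against 9860 and 1645 of 18194 over all genes. Its member Irf1, an interferon response factor, differed by 1.02 (SE 0.28, adjusted p = 0.127).

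Of 9 measured medullary collecting duct genes 1 was called, Aqp4, described above. The listed markers of cell types outside the collecting duct gave no calls, and called genes outside the lists were not sorted by cell type. Proximal tubule (22 genes), thick ascending limb (11), endothelial (14), leukocyte (14), podocyte (6), erythrocyte (4) and smooth muscle and stroma (13) lists had 0 called members by limma. Their medians ran from -0.29 for proximal tubule to 0.09 for endothelium. Mgp, a stromal matrix protein, was nearest to a call, at -0.73 (SE 0.15, adjusted p = 0.0555). Proximal tubule genes had 2 members at an unadjusted p under 0.05, both lower in light. Unadjusted counts for the other lists were 3 or fewer in each direction.

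Set beside DCT/CNT, CCD differed in its light minus dark response in 1 gene (0.0055%) by limma's interaction test, with 1983 at an unadjusted p under 0.05. Ranbp3l, a Ran-binding protein family member, had 8.38, 8.01, 7.82 and 8.43 in light pools, against 10.15, 10.02, 9.57 and 9.71 in dark pools in CCD. Its light pools lay below its dark pools. In DCT/CNT it had 7.24, 6.76, 7.70 and 8.21 in light pools, against 6.00, 5.97, 5.91 and 6.15 in dark pools, with all light pools above all dark pools. The differences were -1.70 (SE 0.20, adjusted p = 0.00956) in CCD, kept in 6 of 8 omissions with adjusted p up to 0.0575, and 1.47 (SE 0.18, adjusted p = 0.0177) in DCT/CNT. The difference between segments was -3.17 (SE 0.29, adjusted p = 0.000232), and it was called in all 16 omissions of 1 array. A second CCD probe set gave -1.64.

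In the DCT/CNT fit of the same contrast 104 genes (0.572%) were called. Of these 40 were also called in CCD, which is 16.7% of the CCD calls and 38.5% of the DCT/CNT calls, and 39 of them had the same sign. Of the 239 CCD genes 116 of 123 higher and 103 of 116 lower ones had the same sign in DCT/CNT. The share with the same sign over all genes was not counted. Nr1d1 differed by 2.89 in CCD and 2.38 in DCT/CNT, Cry1 by -2.10 and -2.07, and Cirbp by 1.19 and 1.21. Efna3 differed by 1.50 and 0.53, Spag5 by -1.15 and 0.23 and Pld6 by 1.13 and -0.03, with interaction adjusted p of 0.373, 0.14 and 0.283. Whether the segments came from the same animals is not given in the sources used here.

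**Figure D5:**
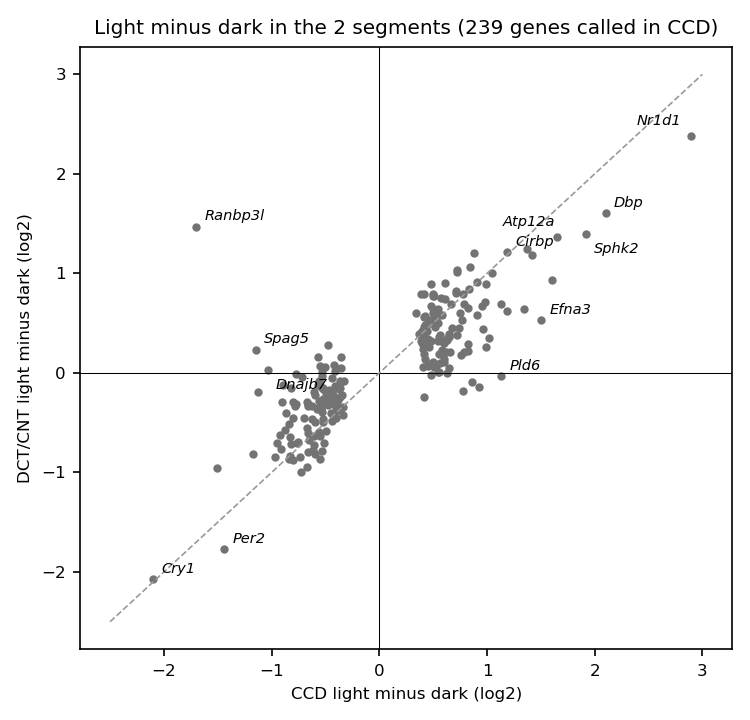
Light minus dark differences (log2) of the 239 genes called in CCD, with CCD on the x axis and DCT/CNT on the y axis. Each point is a gene and the dashed line marks equal differences. Ranbp3l lies at -1.70 in CCD and 1.47 in DCT/CNT.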

How the data were processed

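Per the labels, biotin-labelled cDNA amplified from RNA pools was measured on 24 oligonucleotide arrays. The authors deposited log2 values for 45101 probe sets, made with RMA per the submitters' processing notes, which give no version. No filter or rescaling was applied to them. Probe sets were named through the platform table: 34958 had 1 symbol, 932 several and 9211 none. Each of 18194 genes was represented by its brightest probe set, averaged over all 24 arrays.

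The 12 CCD arrays were fitted with limma 3.58.1 in R 4.3.3 as 6 time groups, so ZT0 and ZT12 inform the spread only. The contrast was the mean of ZT4 and ZT8 minus the mean of ZT16 and ZT20. P-values were adjusted by Benjamini-Hochberg across the whole table, with calls at an adjusted p under 0.05. The segment difference was an interaction in a fit of 24 arrays. The DCT/CNT values come from a fit of its own 12 arrays. Scripts were tested on simulated data. Precision is limited by the number of arrays.

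Named genes were the 15 called genes with the largest difference in each direction whose light and dark arrays did not overlap, all clock list genes, up to 4 genes per other list, and called genes of the other contrasts. Ranking left out predicted genes and olfactory, vomeronasal and taste receptors. The members and the 39 lists were chosen with earlier results of these data known. The labels do not say that pool numbers pair across times, and the main fit used no pairing. Pool differences of 2 times correlated at -0.21 to 0.17, over 0.1 in 2 of 15 pairs of times. These correlations cannot exclude that pools of the same number share a source or batch. Alternatives covered the samples fitted, spread estimate, scaling, probe set choice, dim genes, covariates and omissions.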

Additional observations from a re-analysis of the deposited data

Results flagged for a closer look

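Ranbp3l was picked out because its light minus dark difference differed between the segments. The difference in CCD minus that in DCT/CNT was -3.17 (SE 0.29) on the log2 scale, by limma's interaction test over all genes, with adjusted p up to 0.00183 over the 16 omissions of 1 array. Its light pools were lower than its dark pools in 4 of 4 CCD arrays and higher in 4 of 4 DCT/CNT arrays. Groups of 2 pools are too small for a check on single samples that stand apart.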

How the results depend on the processing

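The pool number as a replicate block, a pairing that the labels do not state, gave 67 higher and 73 lower genes in place of 123 and 116. It gave 1 gene for ZT20 minus ZT16. With the 8 contrasted arrays alone 40 and 45 were called (0 for ZT20 minus ZT16), with light and dark as 2 plain groups 39 and 35, with the most variable probe set 51 and 56, and with the mean levels of both neighbouring-segment marker lists as covariates 34 and 30. A trended, robust spread estimate gave 435 and 409, the genes at or above the median level 370 and 329, and all probe sets 188 lower. Without ZT4, ZT8, ZT16 and ZT20 in turn, 18, 0, 7 and 32 were higher and 32, 0, 4 and 27 lower. Omitting 1 array gave 12 to 53 higher and 14 to 52 lower genes, 0 to 9 for ZT8 minus ZT4, 0 to 9 for ZT20 minus ZT16 and 1 to 12 for the segment difference. ZT8 minus ZT4 had 2 calls with all 24 arrays, and the segment difference 2 after quantile normalisation. The causes were not tested.

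Through these alternatives 185 genes were followed, namely those picked by the naming rule that were called, in a clock list or at an unadjusted p under 0.05, and the others named in the text. The 82 called ones never changed sign. With light and dark as 2 plain groups Dbp, Sphk2, Pcp4, Rwdd3, Pappa, Fubp1 and Mapre2 lost the call, although every array omission had kept it. Signs reversed in 17 uncalled genes. Without ZT4 these were Arntl (-0.53), Cry2 (0.019), Hlf (0.35), Per3 (0.34), Tef (0.075) and Tfrc (-0.21). Without ZT8 they were Bhlhe41 (-0.035), Csnk1e (0.056), Rgs16 (-0.20), Rora (-0.095) and Tspan4 (-0.28). Without ZT16 they were Arntl (-0.91), Coq10b (0.073), Npas2 (-0.46), Per3 (0.98), Rgs16 (-0.11), Tef (0.18) and Tfrc (-0.13). Without ZT20 they were Rora (-0.033) and Tspan4 (-0.29). The most variable probe set reversed Csnk1d (0.24), Ece1 (-0.23), Marveld3 (0.17) and Mcm5 (0.53). Rgs16 reversed with equal medians (-0.024), covariates (-0.031) and quantile normalisation (-0.019), and Rora with equal medians (-0.019). With single arrays left out, Arntl ran from -0.058 to 0.36, Csnk1e from -0.11 to 0.070, Hlf from -0.22 to 0.033, Per3 from -0.28 to 0.087, Rgs16 from -0.064 to 0.078, Rora from -0.042 to 0.065 and Tspan4 from -0.050 to 0.14.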

Other observations

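Beyond the lists, further called genes were lower in light, chosen after their values were seen and so given as values with no test of the group. They include RNA-binding proteins, namely Fubp1 (-0.75), Rbm12 (-0.83), Pspc1 (-0.73), Zranb2 (-0.58), Ddx17 (-0.41) and Hnrnpm (-0.38). Fubp1 and Rbm12 kept the call in 8 of 8 omissions of 1 array, and the others in 0. Further probe sets gave -0.12, -0.93 and -0.01 for Fubp1 and -0.25 and -0.88 for Rbm12. Those of Pspc1 and Ddx17 gave -0.22 for Pspc1 and -0.40 and -0.44 for Ddx17. The cholesterol exporters Abca1 (-0.61) and Abcg1 (-0.76) were lower too, with calls kept in 1 and 0 omissions. Their other probe sets gave -0.37 and -0.52 for Abca1 and -0.27 for Abcg1. The covariate fit ended the calls of Pspc1, Zranb2, Ddx17, Hnrnpm and Abca1 (adjusted p of 0.116, 0.067, 0.097, 0.0893 and 0.0818). Mib1, a ubiquitin ligase of Notch signalling (-0.78), Mapre2, a microtubule end-binding protein (-0.84), and Niban1 (-0.67) kept the call in 8 of 8.

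Genes higher in light included Acsl5 (0.44) and Acsf2 (0.60), which activate fatty acids, and Eci2 (0.52), an enzyme of fatty acid oxidation, with calls kept in 0 omissions each. Chic1 (0.71) kept the call in 8 of 8. Efna4 (0.65), an ephrin ligand like Efna3, and Hes6 (0.55), a Hes family factor, kept it in 0 and 5. Second and further probe sets gave 0.16 for Hes6 and 0.43 and 0.37 for Chic1. Acsl5, Acsf2, Eci2 and Efna4 were not called in the covariate fit, with adjusted p of 0.0851, 0.0749, 0.116 and 0.114.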
